A study of Mus musculus with 12 samples.

Results

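The genes described here are 43 genes of the extracellular matrix and of fibrosis, measured by RNA sequencing in the mouse heart. They were chosen by name from a list of collagens, elastic fibre proteins, small proteoglycans, matricellular proteins, crosslinking enzymes, proteases with their inhibitors, and TGF-beta ligands. This choice, and that of the further gene lists below, was made with earlier results of these data known. Counts set beside all tested genes are therefore descriptive and not independent evidence. All 43 had a row among the 24918 genes of the deposited table, and all 43 were among the 14721 genes that passed the filter on low values. The study compared hearts with and without the glucocorticoid receptor (encoded by Nr3c1) in cardiomyocytes, in males and females of the C57BL/6 background, untreated and at 2 months of age. Control mice were homozygous for the floxed receptor allele (GRloxP,loxP). The deleted mice carried the same homozygous floxed alleles together with an αMHC-Cre transgene and were designated cardioGRKO. Each of the 4 groups (floxed and cardioGRKO, male and female) had 3 libraries.

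Cre is driven in this model by the promoter of alpha myosin heavy chain, a gene of cardiac muscle cells, whereas most interstitial matrix of the heart is made by fibroblasts, which the promoter does not target. Only the cardioGRKO mice carried Cre, so an effect of Cre itself cannot be told apart from that of the deletion. All 12 libraries carry the entry wild-type as their genotype in the labels, and the groups follow the sample titles.

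The matrix of the heart is a network of type I and type III collagen fibres that bundles muscle cells and carries force. Elastic fibres, basement membranes around myocytes and vessels, and small leucine-rich proteoglycans that set fibre thickness are built into it. Matricellular proteins such as connective tissue growth factor (Ctgf, now also called Ccn2), periostin (Postn) and the thrombospondins bind this network without being load-bearing, and are known for their rise in injured or overloaded hearts. TGF-beta ligands are the best known inducers of the programme, and lysyl oxidases, metalloproteinases and their inhibitors (TIMPs) set how long the fibres last.

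Several facts about the libraries bear on every value below. Values are log2 levels as deposited, the number of reads per library is unknown, and no label states whether each library came from its own animal, so p-values measure library-to-library spread that could be technical. Nr3c1 was at 11.41 ± 0.0154 in male floxed and 10.85 ± 0.027 in male cardioGRKO libraries, but at 10.74 ± 0.0345 in the libraries labelled female floxed and 10.88 ± 0.0288 in those labelled female cardioGRKO (mean log2 ± SD, n = 3 each). By limma it was lower in male cardioGRKO (log2 difference -0.56, adjusted p = 2.4e-11) whereas the female libraries with the cardioGRKO label had more of it than those with the floxed label (0.14, adjusted p = 0.00038), which goes against the female labels. Directions in females are therefore given for the libraries as labelled. Were the female labels exchanged, each female difference would change sign, and opposite directions by sex would become the same direction. Whether they were exchanged was not tested. Replicates 1 and 2 labelled female floxed stood apart through epithelial transcripts: Krt12, a corneal keratin, was at 13.13 and 13.98 there, at 8.35 in the third, and between 7.16 and 8.49 in the other 9 libraries. In whole-heart RNA, fewer cells of a type and less RNA per cell cannot be told apart.

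Promoter sequences of members that moved in opposite directions by sex are shown first, to place the values that follow beside the DNA next to the gene. RefSeq windows on GRCm38.p6 were at hand for 26 of the 43 genes and for 5 of the 15 that rose in male cardioGRKO hearts and fell in the libraries labelled female cardioGRKO. The 3 of those 5 with the largest interaction are printed as the 250 bases upstream of the start, 5′ to 3′ on the strand of the gene, with capitals marking matches on either strand to the motifs named after them.
Cilp2 (chr8:69887393-69887642, minus strand): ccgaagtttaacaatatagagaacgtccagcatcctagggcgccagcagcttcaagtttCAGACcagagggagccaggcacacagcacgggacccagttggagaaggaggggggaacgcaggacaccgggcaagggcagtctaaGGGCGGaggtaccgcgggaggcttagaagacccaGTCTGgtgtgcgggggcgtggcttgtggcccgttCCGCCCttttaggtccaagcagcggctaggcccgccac
Fmod (chr1:134037004-134037253, plus strand): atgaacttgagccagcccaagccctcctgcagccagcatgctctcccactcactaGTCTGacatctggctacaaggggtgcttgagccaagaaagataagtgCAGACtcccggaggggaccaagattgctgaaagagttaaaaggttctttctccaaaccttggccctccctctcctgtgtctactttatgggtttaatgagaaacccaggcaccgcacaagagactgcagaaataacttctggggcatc
Bgn (chrX:73483351-73483600, plus strand): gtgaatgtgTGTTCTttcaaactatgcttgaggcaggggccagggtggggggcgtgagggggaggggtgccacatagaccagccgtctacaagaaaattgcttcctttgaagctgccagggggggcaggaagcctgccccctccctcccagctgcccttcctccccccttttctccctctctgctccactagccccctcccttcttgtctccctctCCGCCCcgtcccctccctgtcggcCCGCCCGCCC
The motifs were searched on both strands. The full palindromic glucocorticoid response element, which is the arm named next and its reverse complement spaced by 3 bases, was in 0 of the 26 windows, and in 0.0111% of the 27025 genes with a window. That single arm, AGAACA, was in 2 of 26 (Bgn, starting at position -241 from the start site, and Sparc), or 7.69%, against 18.2% of all genes. The SMAD-binding letters GTCTG were in 14 of 26, or 53.8%, against 45.8% of all genes, among them Cilp2 at -191 and -72 and Fmod at -195 and -148. The GC box GGGCGG was in 15 of 26, or 57.7%, against 35.4%, among them Cilp2 at -106 and -38 and Bgn at -34, -10 and -6, the last pair overlapping. The TEAD motif GGAATG was in 5 of 26 (19.2%, against 14.4%) and the TATA box TATAAA in 6 of 26 (23.1%, against 14.3%). A match describes these letters in this window and is not a binding site.

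Matrix genes were mostly higher in male cardioGRKO hearts and mostly lower in the libraries labelled female cardioGRKO. In males 23 of the 43 genes rose and 3 fell (limma, adjusted p under 0.05), beside 12.8% of all tested genes that rose and 14.6% that fell (27.4% together). The median log2 difference of the 43 was 0.098, against -0.002 over all tested genes. In the libraries labelled female, 3 of 43 rose and 21 fell, beside 15.2% and 14.0% of all tested genes (29.3% together), and the median was -0.072 against 0 over all genes. The difference between the sexes was itself tested as an interaction term: 27 of 43 genes had a more positive difference in males and 3 a more positive difference in females, beside 14.3% and 17.0% of all tested genes (31.3% together). The median of the interaction was 0.174 for the 43 genes, and this term too rests on the female labels. Without the pair of female floxed libraries that held epithelial transcripts, 2 members rose and 17 fell in the female comparison, and 26 and 3 passed the interaction test in each direction.

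Most single differences were small, and the spread within groups was narrow. The 3 libraries of a group had a median SD of 0.0286, 0.0211, 0.0312 and 0.0279 log2 units over the 43 genes in floxed then cardioGRKO males and floxed then cardioGRKO females. In males 28 genes had all 3 cardioGRKO libraries above all 3 floxed libraries and 3 had them all below, beside 19.4% and 22.0% of tested genes (41.4% together). In the libraries labelled female, 4 genes lay entirely above and 25 entirely below, beside 21.6% and 19.1% (40.7% together).

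Of the 43 genes, 15 rose in male cardioGRKO hearts and fell in the libraries labelled female cardioGRKO, and all 15 passed the interaction test: Col1a1, Col1a2, Col5a2, Fn1, Eln, Mfap4, Bgn, Dcn, Lum, Fmod, Comp, Cilp2, Thbs1, Ctgf and Timp3. That is 15 of the 23 that rose in males and 15 of the 21 that fell in females, and the same pair of calls was met by 3.65% of all tested genes. Among the 15, calls of Col1a1, Col5a2 and Mfap4 within a sex were lost in some other settings, given with each gene. The reverse pair of calls, lower in males and higher in females, was met by Col4a1 and Col4a2, beside 4.92% of tested genes. A single member, osteoglycin (Ogn), rose in both sexes, beside 2.25% of tested genes, and 0 members fell in both, beside 1.69%. Another 10 members passed in neither sex and not in the interaction: Col5a1, Col6a1, Col6a2, Fbn1, Tnc, Spp1, Loxl2, Mmp2, Tgfb1 and Tgfb2. Some of these passed under other settings, which are given with each gene.

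The group means had a preferred order. Male floxed hearts held the lowest mean for 22 of the 43 genes, beside 27.8% of tested genes, and the libraries labelled female floxed held the highest for 26, beside 30.1% of tested genes. Both held for 15 members, beside 12.9% of tested genes. Col4a1, Col4a2 and Sparc had the opposite ends, male floxed highest and female floxed lowest, as did 14.7% of tested genes.

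**Figure D1:**
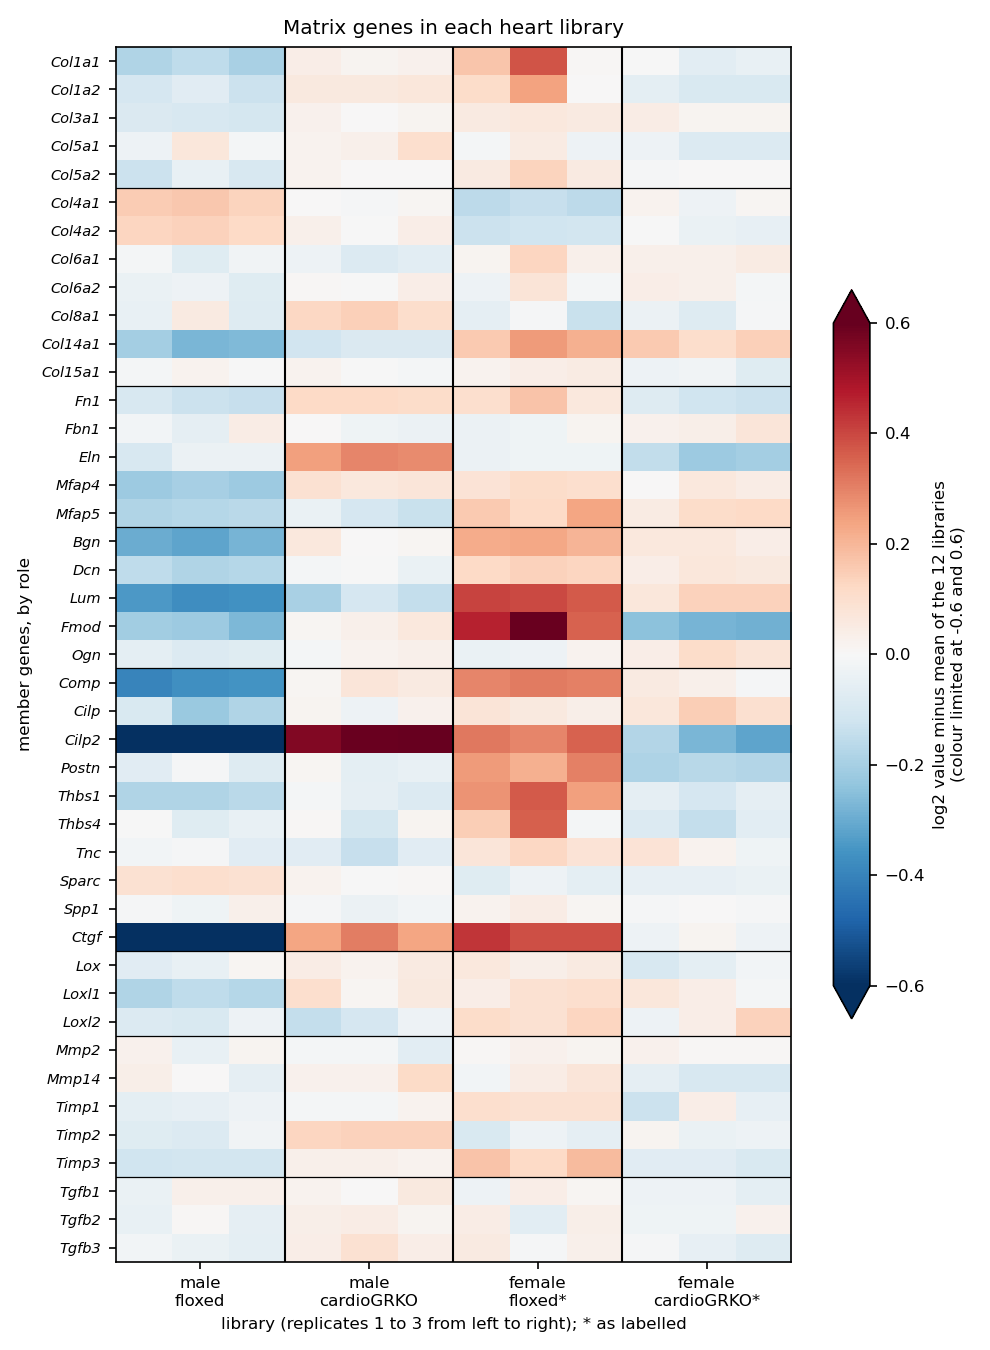
Deviation of each of the 43 genes (rows, ordered by role) from its own mean over the 12 libraries (columns), in log2 units, with colour limited at 0.6 in either direction. Male floxed libraries are low and female floxed libraries high for most rows with strong colour, and Col4a1 and Col4a2 run the other way.

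**Figure D2:**
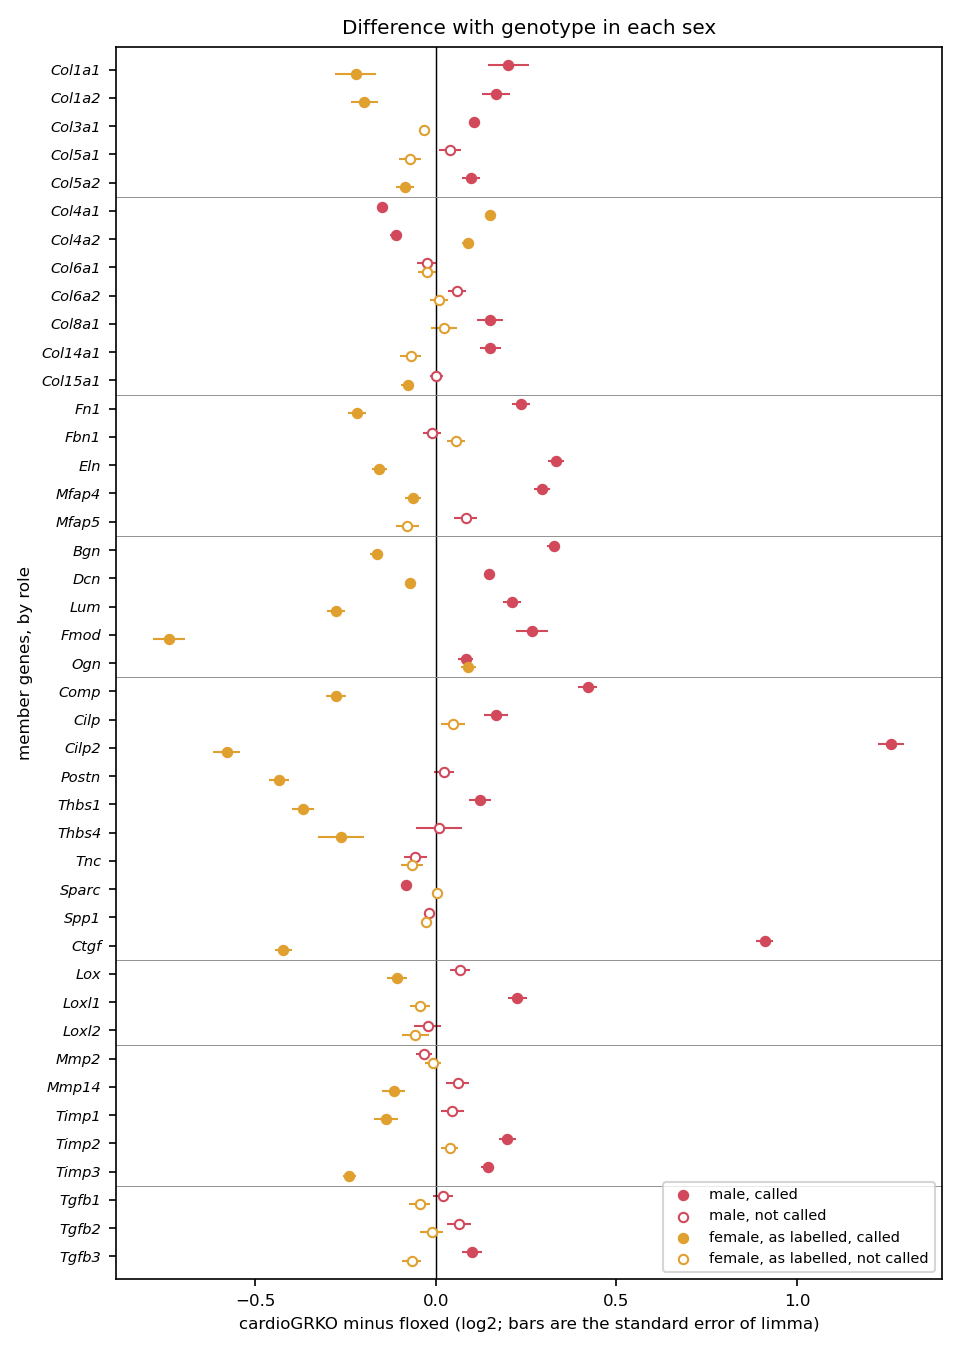
Log2 difference of cardioGRKO minus floxed for each of the 43 genes (rows, ordered by role), in males and in the libraries labelled female, with standard errors from limma and filled points for genes that passed the test. Male points lie mostly to the right of 0 and female points mostly to the left, Cilp2 at 1.26 and -0.58 and Ctgf at 0.91 and -0.42 are the widest pairs, and Col4a1 and Col4a2 are crossed.

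Fibrillar collagens, the rods of the load-bearing network, showed opposite directions by sex at small size. In males 4 of the 5 genes rose and none fell, with a median log2 difference of 0.106. In the libraries labelled female 3 of 5 fell and none rose, with a median of -0.085. Counts by role, here and below, stand beside 12.8% of all tested genes that rose and 14.6% that fell in males. In females these shares were 15.2% and 14.0%. Col1a1, the main chain of type I collagen, was at 12.61, 12.64 and 12.60 in male floxed, 12.83, 12.81 and 12.82 in male cardioGRKO, 12.96, 13.17 and 12.80 in female floxed, and 12.79, 12.73 and 12.75 in female cardioGRKO libraries. The male groups were apart, and the female groups were apart by a narrow margin, with female floxed replicate 2 the highest of the 12. Col1a1 rose by 0.20 ± 0.057 (SE, limma adjusted p = 0.014; 1.15-fold) in males and fell by 0.22 (adjusted p = 0.0077) in females, with an interaction of 0.42 (adjusted p = 0.00065).

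The Col1a1 difference in females was smaller without the libraries with epithelial transcripts. It was -0.13 (limma adjusted p = 0.0088) without female floxed replicate 2, and -0.04 (adjusted p = 0.31) without both. Its partner chain Col1a2 rose by 0.17 (adjusted p = 0.0034) in males and fell by 0.20 (adjusted p = 0.001) in females, and the latter was -0.08 (adjusted p = 0.023) without both libraries. Col5a2, a chain of the type V collagen that nucleates fibrils, rose by 0.10 (adjusted p = 0.007) in males and had a female difference of -0.08 (adjusted p = 0.017), which was -0.06 (adjusted p = 0.098) without female floxed replicate 2 and -0.08 (adjusted p = 0.053) without female cardioGRKO replicate 1. Without both libraries with epithelial transcripts it was -0.06 (adjusted p = 0.28). The partner chain Col5a1 had differences of 0.04 in males and -0.07 in females (adjusted p = 0.38 and 0.085) and an interaction of 0.11 (adjusted p = 0.057). That interaction passed in 7 settings (0.11 to 0.15, adjusted p = 0.015 to 0.044), among them those without male floxed replicate 2, female floxed replicate 3 or female cardioGRKO replicate 1. The female difference passed in 3, at -0.09 under quantile normalization (adjusted p = 0.033) and without female floxed replicate 3 (0.036), and at -0.07 with robust moderation (0.037). Under limma's robust moderation, which allows for genes of unusual spread, Col1a1 passed in neither sex (adjusted p = 0.09 and 0.062).

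Type III collagen forms thinner fibres beside type I. Its chain Col3a1 was at 14.23, 14.22 and 14.21 in male floxed, 14.34, 14.32 and 14.33 in male cardioGRKO, 14.37, 14.38 and 14.37 in female floxed, and 14.36, 14.33 and 14.33 in female cardioGRKO libraries. The male groups were clearly apart and the female groups lay close together. Col3a1 rose by 0.11 in males (limma adjusted p = 1.9e-05), its female difference was -0.03 (adjusted p = 0.092), and the interaction was 0.14 (adjusted p = 3.9e-05). The female value was -0.04 (adjusted p = 0.043) without female cardioGRKO replicate 1. Under quantile normalization the male difference was 0.17, the interaction 0.25 and the female difference -0.07 (adjusted p = 0.0017), so the last then passed the test.

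Basement membrane collagen moved against the rest. Col4a1 and Col4a2 encode the chains that form the sheet around myocytes and capillaries, and they are neighbours on chromosome 8 whose RefSeq starts lie 21 bases apart on opposite strands. They, like Sparc further on, were chosen for a full account after their values were seen. Col4a1 was at 15.34, 15.35 and 15.32 in male floxed, 15.19, 15.18 and 15.20 in male cardioGRKO, 15.03, 15.05 and 15.03 in female floxed, and 15.21, 15.16 and 15.20 in female cardioGRKO libraries. Male floxed libraries were the highest, female floxed the lowest, and the cardioGRKO libraries of both sexes overlapped in between. Col4a1 fell by 0.15 in males (limma adjusted p = 6.2e-07), rose by 0.15 in females (adjusted p = 9e-07) and had an interaction of -0.30 (adjusted p = 8.4e-09).

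Col4a2 followed the same order, at 14.71, 14.72 and 14.70, then 14.61, 14.58 and 14.62, then 14.45, 14.46 and 14.47, and 14.58, 14.54 and 14.53 in the same sequence of groups. The genotypes did not overlap within either sex. It fell by 0.11 in males (limma adjusted p = 6.4e-05) and rose by 0.09 in females (adjusted p = 0.0006). Under quantile normalization the differences of Col4a1 were -0.06 in males and 0.07 in females and that of Col4a2 in males was -0.06, with directions and calls kept. Endothelial marker genes moved in the same directions: 8 of 10 fell and 1 rose in males (90% called, beside 27.4% of all tested genes), and 6 rose and 2 fell in females (80%, beside 29.3%). Their summed level (2 to the power of the deposited values) was 55200 to 55600 in male floxed, 50300 to 50900 in male cardioGRKO, 48400 to 50200 in female floxed and 52200 to 53100 in female cardioGRKO libraries, and their part in the result was not tested.

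The other collagens of the list were divided. Col8a1, a short-chain collagen of vessel walls, rose in males by 0.15 (limma adjusted p = 0.0046), with a female difference of 0.02 (adjusted p = 0.7) and an interaction of 0.13 (adjusted p = 0.067). The Col8a1 interaction passed in 5 settings (0.13 to 0.17, adjusted p = 0.0096 to 0.048), among them those without male floxed replicate 2 or female floxed replicate 3. Col14a1, which binds the surface of fibrils, rose by 0.15 in males (adjusted p = 0.0006), with a female difference of -0.07 (adjusted p = 0.073), or -0.10 (adjusted p = 0.024) without female floxed replicate 1. Col15a1, a collagen of the basement membrane zone, fell by 0.08 in females (adjusted p = 0.0043) with a male difference of 0.00 (adjusted p = 0.96). Its interaction of 0.08 (adjusted p = 0.027) lost its call without male floxed replicate 1 (adjusted p = 0.056) or 3 (0.054), male cardioGRKO replicate 1 (0.067), female floxed replicate 3 (0.05) or female cardioGRKO replicate 3 (0.074), with a replicate block within each sex (0.056) and with median centring (0.05). Under quantile normalization the Col15a1 difference in males was 0.06 (adjusted p = 0.017). The type VI chains Col6a1 and Col6a2, which form beaded filaments next to cells, passed in neither sex, with male differences of -0.02 and 0.06 (adjusted p = 0.55 and 0.1). Col6a2 passed in males under quantile normalization (0.10, adjusted p = 0.0059), in a fit within 1 sex (0.06, adjusted p = 0.026) and without the libraries with epithelial transcripts (0.06, adjusted p = 0.031), and in the interaction under quantile normalization (0.12, adjusted p = 0.012).

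Elastic fibre proteins and fibronectin had a higher median difference than the fibrillar collagens in males and a like one in females. Of the 5 genes, 3 rose in males and none fell (median 0.237), while 3 fell in females and none rose (median -0.079). Elastin (Eln), the rubber-like core of elastic fibres, was at 12.53, 12.59 and 12.59 in male floxed, 12.87, 12.92 and 12.91 in male cardioGRKO, 12.59, 12.60 and 12.60 in female floxed, and 12.48, 12.41 and 12.42 in female cardioGRKO libraries. The floxed libraries of the sexes lay close together, with male cardioGRKO above them and female cardioGRKO below. Elastin rose by 0.33 ± 0.022 in males (SE, limma adjusted p = 7.1e-09; 1.26-fold) and fell by 0.16 in females (adjusted p = 6.1e-05), with an interaction of 0.49 (adjusted p = 4.1e-09).

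Mfap4, a glycoprotein of elastic microfibrils, was at 10.37, 10.39 and 10.37 in male floxed, 10.68, 10.65 and 10.66 in male cardioGRKO, 10.67, 10.70 and 10.69 in female floxed, and 10.59, 10.65 and 10.63 in female cardioGRKO libraries. Male floxed libraries alone stood low. Mfap4 rose by 0.29 in males (limma adjusted p = 2.4e-08; 1.22-fold). Its female difference, -0.06 (adjusted p = 0.035), lost its call in 10 settings, so its place among the 15 genes with opposite calls is weak. In 5 of them 1 library was left out, with limma adjusted p = 0.055 without female floxed replicate 1, 0.1 without replicate 2, 0.09 without replicate 3, 0.14 without female cardioGRKO replicate 1 and 0.063 without its replicate 3. In the others the adjusted p was 0.064 with robust moderation, 0.057 with library weights, 0.062 with the replicate block within sex, 0.073 in a fit within 1 sex and 0.23 without the libraries with epithelial transcripts.

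Fibronectin (Fn1), the adhesive scaffold on which collagen is laid down, was at 11.36, 11.33 and 11.32 in male floxed, 11.58, 11.58 and 11.57 in male cardioGRKO, 11.56, 11.63 and 11.52 in female floxed, and 11.38, 11.34 and 11.33 in female cardioGRKO libraries. Male cardioGRKO and female floxed libraries shared a high level, and male floxed and female cardioGRKO libraries a low one. It rose by 0.24 in males (limma adjusted p = 1.8e-06) and fell by 0.22 in females (adjusted p = 6.6e-06), with an interaction of 0.46 (adjusted p = 4.2e-08). Fibrillin 1 (Fbn1), the backbone of microfibrils, had differences of -0.01 and 0.06 (adjusted p = 0.83 and 0.1), and the latter passed with library weights (adjusted p = 0.048). Mfap5, a further microfibril protein, passed in neither sex (0.08 and -0.08, adjusted p = 0.062 and 0.07) but in the interaction (0.16, adjusted p = 0.01). It passed in males without male cardioGRKO replicate 3 (0.10, adjusted p = 0.045) and in females without female floxed replicate 2 (-0.11, adjusted p = 0.023). It also passed in 6 further settings in males (adjusted p = 0.025 to 0.049) and in 2 in females (0.0094 and 0.045).

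Small leucine-rich proteoglycans bind collagen and limit fibril growth, and all 5 on the list passed in both sexes. All 5 rose in males (median 0.21), and in females 4 fell and 1 rose (median -0.163). Biglycan (Bgn) was at 12.97, 12.95 and 12.99 in male floxed, 13.33, 13.27 and 13.28 in male cardioGRKO, 13.49, 13.50 and 13.47 in female floxed, and 13.33, 13.33 and 13.31 in female cardioGRKO libraries. The cardioGRKO libraries of both sexes met at a middle level, with male floxed below and female floxed above. Biglycan rose by 0.33 ± 0.018 in males (SE, limma adjusted p = 7.1e-10; 1.25-fold) and fell by 0.16 in females (adjusted p = 4.6e-06), with an interaction of 0.49 (adjusted p = 3.1e-10).

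Fibromodulin (Fmod), whose promoter is printed above, had the largest fall of the 43 genes in the libraries labelled female cardioGRKO. It was at 8.23, 8.22 and 8.17 in male floxed, 8.45, 8.47 and 8.50 in male cardioGRKO, 8.90, 9.03 and 8.79 in female floxed, and 8.19, 8.16 and 8.15 in female cardioGRKO libraries. The female floxed libraries stood above the other 9. Fibromodulin rose by 0.27 in males (limma adjusted p = 0.00019; 1.2-fold) and fell by 40.0% in females (log2 difference -0.74 ± 0.044, SE, adjusted p = 3.1e-09), with an interaction of 1.01 (adjusted p = 2.5e-09).

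Lumican (Lum), a regulator of fibril spacing, was at 11.48, 11.45 and 11.46 in male floxed, 11.63, 11.72 and 11.68 in male cardioGRKO, 12.23, 12.22 and 12.19 in female floxed, and 11.89, 11.96 and 11.96 in female cardioGRKO libraries. All 6 libraries labelled female lay above all 6 male libraries. It rose by 0.21 in males (limma adjusted p = 5.9e-06) and fell by 0.28 in females (adjusted p = 4e-07). Its neighbour on chromosome 10, decorin (Dcn), which coats collagen fibrils, rose by 0.15 in males (adjusted p = 1.4e-06) and fell by 0.07 in females (adjusted p = 0.0024), and these became 0.23 and -0.12 under quantile normalization. Osteoglycin (Ogn), also a proteoglycan of this family, rose by 0.08 in males (adjusted p = 0.0078) and by 0.09 in females (adjusted p = 0.0048), with an interaction of -0.01 (adjusted p = 0.88). Its female call was lost under quantile normalization (0.05, adjusted p = 0.083) and without the libraries with epithelial transcripts (0.06, adjusted p = 0.22).

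Matricellular and cartilage-type matrix proteins held the largest rises of the 43 genes in males, Cilp2 and Ctgf, although the median of the role was low there. Of the 10 genes, 5 rose and 1 fell in males (median 0.072), and 6 fell and none rose in females (median -0.269). Cilp2, a secreted protein named for the intermediate layer of cartilage, was at 8.38, 8.37 and 8.44 in male floxed, 9.62, 9.66 and 9.72 in male cardioGRKO, 9.38, 9.36 and 9.42 in female floxed, and 8.89, 8.79 and 8.75 in female cardioGRKO libraries. No pair of groups overlapped, in the order male floxed, female cardioGRKO, female floxed, male cardioGRKO. Cilp2 rose 2.4-fold in males (log2 difference 1.26 ± 0.037, SE, limma adjusted p = 1.9e-13) and fell by 33.1% in females (-0.58, adjusted p = 7.6e-09), with an interaction of 1.84 (adjusted p = 1e-13). Its relative Cilp rose by 0.17 in males (adjusted p = 0.0011) with a female difference of 0.05 (adjusted p = 0.33) and an interaction of 0.12 (adjusted p = 0.064), or 0.16 (adjusted p = 0.013) without male floxed replicate 1. The Cilp interaction also passed without female floxed replicate 3 (adjusted p = 0.047) or female cardioGRKO replicate 2 (0.039), with robust moderation (0.047) and with library weights (0.044).

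Ctgf, a secreted protein induced by TGF-beta and by stretch, was at 10.67, 10.66 and 10.64 in male floxed, 11.54, 11.61 and 11.54 in male cardioGRKO, 11.73, 11.69 and 11.69 in female floxed, and 11.27, 11.32 and 11.27 in female cardioGRKO libraries. Here too no pair of groups overlapped, with male floxed far below the other 3 groups. Ctgf rose 1.88-fold in males (0.91 ± 0.024, SE, limma adjusted p = 3.8e-14) and fell by 25.4% in females (-0.42, adjusted p = 1.7e-09), with an interaction of 1.33 (adjusted p = 2e-14).

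Cartilage oligomeric matrix protein (Comp), which bridges collagen fibrils, was at 7.83, 7.86 and 7.87 in male floxed, 8.24, 8.30 and 8.28 in male cardioGRKO, 8.52, 8.54 and 8.53 in female floxed, and 8.28, 8.26 and 8.22 in female cardioGRKO libraries. As with biglycan, the cardioGRKO libraries of both sexes overlapped between a low male floxed and a high female floxed group. Comp rose 1.34-fold in males (0.42, limma adjusted p = 4.5e-09) and fell by 17.4% in females (-0.28, adjusted p = 1.1e-06), with an interaction of 0.70 (adjusted p = 6.2e-10).

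Periostin (Postn), a product of activated fibroblasts, differed in females and did not pass the test in males. It was at 10.96, 11.02 and 10.95 in male floxed, 11.04, 10.97 and 10.98 in male cardioGRKO, 11.28, 11.24 and 11.33 in female floxed, and 10.84, 10.86 and 10.85 in female cardioGRKO libraries. The male groups overlapped, and the female groups lay on either side of them. The male difference was 0.02 (limma adjusted p = 0.6), and in females Postn fell by 26.0% (-0.43 ± 0.027, SE, adjusted p = 5.2e-09), with an interaction of 0.46 (adjusted p = 8.8e-08).

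Thrombospondin 1 (Thbs1), a secreted activator of latent TGF-beta, was at 8.80, 8.80 and 8.82 in male floxed, 8.97, 8.93 and 8.90 in male cardioGRKO, 9.25, 9.35 and 9.23 in female floxed, and 8.93, 8.88 and 8.93 in female cardioGRKO libraries. Female floxed libraries stood above the other groups, and male cardioGRKO and female cardioGRKO overlapped. It rose by 0.12 in males (limma adjusted p = 0.0073) and fell by 22.5% in females (-0.37, adjusted p = 2.1e-07), with an interaction of 0.49 (adjusted p = 2.4e-07).

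Thrombospondin 4 (Thbs4), a stress-induced matrix protein of muscle, was at 7.47, 7.40 and 7.43 in male floxed, 7.48, 7.37 and 7.49 in male cardioGRKO, 7.62, 7.83 and 7.46 in female floxed, and 7.39, 7.33 and 7.41 in female cardioGRKO libraries. Female floxed replicates 1 and 2, which held the epithelial transcripts, were its highest libraries, and the third lay within the male range. The female difference was -0.26 (limma adjusted p = 0.0048), -0.17 (adjusted p = 0.011) without female floxed replicate 2, and -0.09 (adjusted p = 0.21) without both. The interaction of 0.27 (adjusted p = 0.027) was 0.10 (adjusted p = 0.23) without both. It also missed the threshold when male floxed replicate 2 (adjusted p = 0.063) or 3 (0.052), male cardioGRKO replicate 1 (0.065) or 3 (0.068), or female cardioGRKO replicate 2 (0.068) was left out.

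Sparc, a calcium-binding glycoprotein that assists collagen assembly, was the single matricellular gene that fell in males. It was at 14.92, 14.93 and 14.92 in male floxed, 14.85, 14.83 and 14.84 in male cardioGRKO, 14.76, 14.80 and 14.77 in female floxed, and 14.78, 14.78 and 14.79 in female cardioGRKO libraries. Male floxed libraries were the highest, and the female groups overlapped. On the deposited scale Sparc fell by 0.08 in males (limma adjusted p = 0.00012). This direction depends on the scaling, since under quantile normalization the male difference was 0 (adjusted p = 0.92), the female difference went from 0.00 (adjusted p = 0.91) to -0.07 (adjusted p = 0.0006) and the interaction turned from -0.09 (adjusted p = 0.0019) to 0.07 (adjusted p = 0.0053). Tenascin C (Tnc) and osteopontin (Spp1), both known for their rise in injured myocardium, passed in neither sex, with male differences of -0.06 and -0.02 (adjusted p = 0.21 and 0.33) and female differences of -0.07 and -0.03 (adjusted p = 0.13 and 0.15). The Tnc difference in females was -0.09 (adjusted p = 0.044) without female cardioGRKO replicate 1. Spp1 was a low gene, at 3.76 to 3.84 in every library, just above the filter on low values. Whether the authors shrank the deposited values is not known, and shrinkage would make differences of so low a gene smaller. The test of Spp1 therefore cannot show that its level was unchanged.

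**Figure D3:**
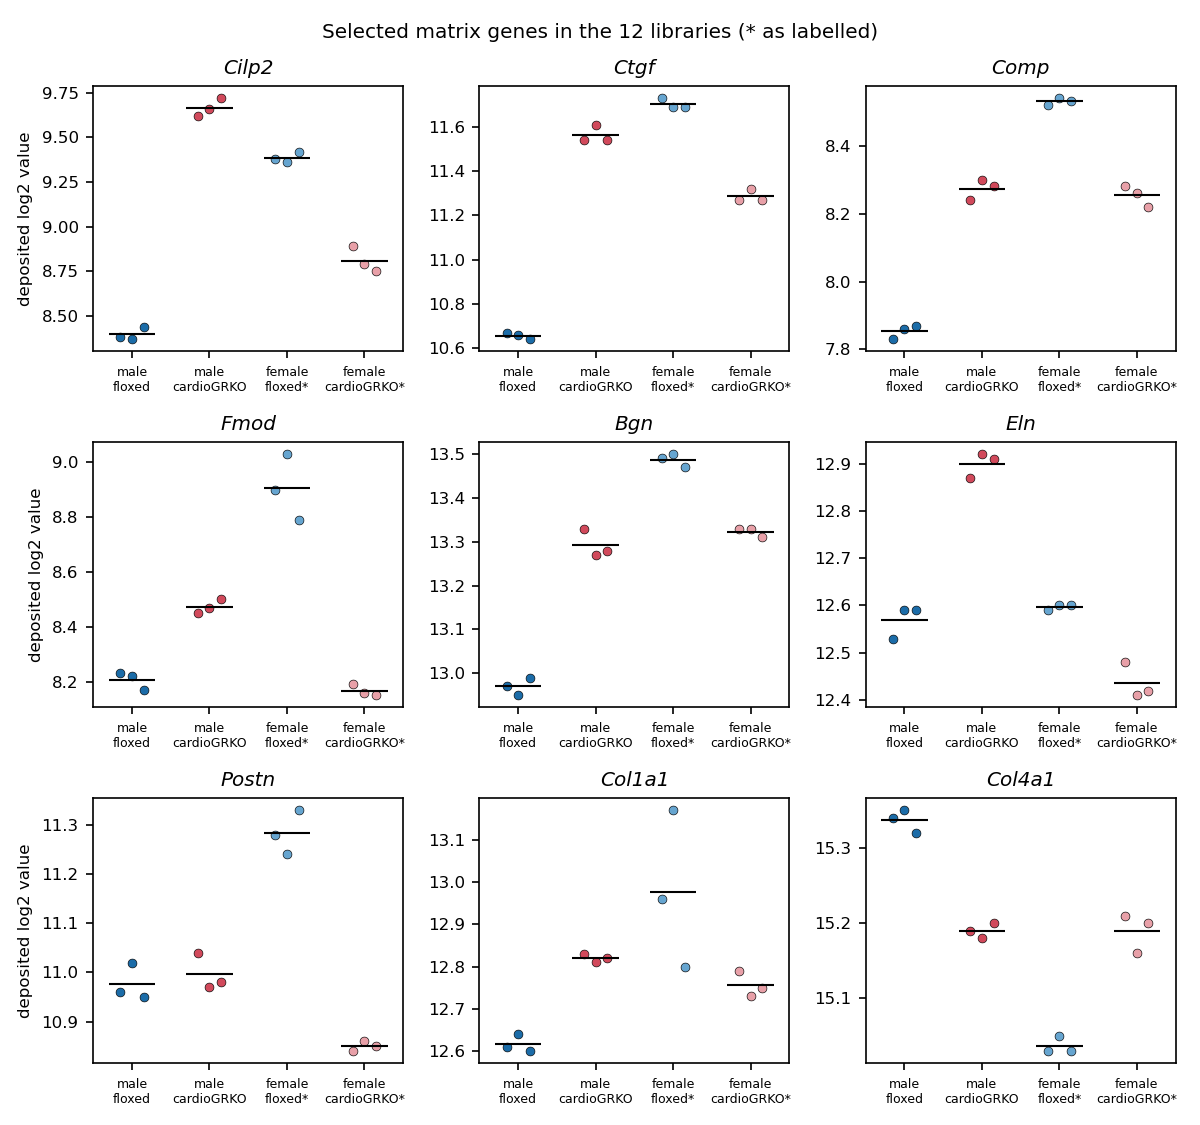
Deposited log2 level of 9 matrix genes in each library, 1 panel per gene with its own vertical axis and 4 groups of 3 points with a bar at the group mean. Ctgf and Cilp2 rise from male floxed to male cardioGRKO and fall from female floxed to female cardioGRKO, Postn differs in the female groups, and Col4a1 runs the opposite way.

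Crosslinking enzymes, which join collagen and elastin chains into insoluble fibres, were higher in males in 1 of 3 genes and lower in females in another. That is 33.3% called in each sex, near the 27.4% and 29.3% of all tested genes called in males and females. Loxl1, the family member tied to elastic fibres, was at 11.12, 11.15 and 11.13 in male floxed, 11.40, 11.31 and 11.36 in male cardioGRKO, 11.34, 11.39 and 11.40 in female floxed, and 11.37, 11.34 and 11.29 in female cardioGRKO libraries. Male floxed libraries alone stood low. Loxl1 rose by 0.23 in males (limma adjusted p = 5.5e-06), with a female difference of -0.04 (adjusted p = 0.24) and an interaction of 0.27 (adjusted p = 3.2e-05). Lysyl oxidase (Lox) fell by 0.11 in females (adjusted p = 0.0091), a call that was lost without the libraries with epithelial transcripts (-0.11, adjusted p = 0.1). Its male difference was 0.07 (adjusted p = 0.09), or 0.09 (adjusted p = 0.036) without male floxed replicate 3. Loxl2 had differences of -0.02 and -0.06 (adjusted p = 0.72 and 0.28), and the latter was -0.10 (adjusted p = 0.046) without female cardioGRKO replicate 3.

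Among proteases and inhibitors, the TIMPs moved and the gelatinase Mmp2 did not pass the test. Of these 5 genes 2 rose in males (median 0.061) and 3 fell in females (median -0.117). That is 40% and 60% called, beside 27.4% and 29.3% of all tested genes. Timp3, the inhibitor that stays bound to the matrix, was at 12.62, 12.63 and 12.63 in male floxed, 12.77, 12.77 and 12.76 in male cardioGRKO, 12.91, 12.86 and 12.93 in female floxed, and 12.67, 12.67 and 12.65 in female cardioGRKO libraries. No pair of groups overlapped. Timp3 rose by 0.14 in males (limma adjusted p = 1e-05) and fell by 0.24 in females (adjusted p = 4.9e-08), with an interaction of 0.38 (adjusted p = 5.6e-09).

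Timp2, an inhibitor that also takes part in activating Mmp2, rose by 0.20 in males (limma adjusted p = 4e-06) with a female difference of 0.04 (adjusted p = 0.23). Timp1, the inducible inhibitor of the family, fell by 0.14 in females (adjusted p = 0.0037) with a male difference of 0.05 (adjusted p = 0.33). Mmp14, a membrane-bound collagenase, fell by 0.12 in females (adjusted p = 0.011) with a male difference of 0.06 (adjusted p = 0.18). Mmp2 had differences of -0.03 and -0.01 (adjusted p = 0.35 and 0.85).

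TGF-beta ligands differed little in the same hearts. Tgfb1, the isoform most studied in fibrosis, was at 9.72, 9.79 and 9.79 in male floxed, 9.78, 9.76 and 9.82 in male cardioGRKO, 9.73, 9.80 and 9.77 in female floxed, and 9.73, 9.73 and 9.70 in female cardioGRKO libraries. Tgfb2, a further isoform, was at 8.59, 8.64 and 8.58, then 8.67, 8.68 and 8.65, then 8.68, 8.57 and 8.67, and 8.61, 8.61 and 8.66 in the same sequence of groups. The genotypes overlapped in both sexes for Tgfb1, and in females for Tgfb2. Neither gene passed a genotype test: Tgfb1 differed by 0.02 ± 0.028 in males and -0.04 ± 0.028 in females (SE, limma adjusted p = 0.65 and 0.25), and Tgfb2 by 0.06 ± 0.032 and -0.01 ± 0.032 (adjusted p = 0.16 and 0.82).

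Tgfb3, the third mammalian isoform, was at 9.75, 9.73 and 9.71 in male floxed, 9.81, 9.86 and 9.81 in male cardioGRKO, 9.82, 9.76 and 9.80 in female floxed, and 9.76, 9.72 and 9.69 in female cardioGRKO libraries. The male groups did not overlap and the female groups met at their edges. It rose by 0.10 in males (limma adjusted p = 0.011), or 0.08 (adjusted p = 0.058) without male cardioGRKO replicate 2. The female difference was -0.07 (adjusted p = 0.076), and -0.08 (adjusted p = 0.049) or -0.09 (adjusted p = 0.039) without female floxed replicate 2 or female cardioGRKO replicate 1, and -0.08 with library weights (adjusted p = 0.032). The Tgfb3 interaction was 0.17 (adjusted p = 0.0031).

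Levels of the 43 genes were compared with one another per kilobase of exon, taking 2 to the power of the deposited value and the summed exon length of GENCODE. In male floxed hearts Sparc was the highest at 8198 ± 16.3 per kilobase (SD, n = 3) and made up 19.7% of their sum. The basement membrane chains followed, Col4a1 at 5555 ± 55.8 and Col4a2 at 4049 ± 28 per kilobase. Decorin (Dcn) was at 3389 ± 37.4 per kilobase and the type III collagen chain Col3a1 at 1948 ± 10.9. The genes that fell in male cardioGRKO hearts on the deposited scale, Col4a1, Col4a2 and Sparc, were thus the 3 most abundant of the list. Under quantile normalization, as given above, the fall of Sparc was not kept and those of Col4a1 and Col4a2 were smaller. At the other end stood Tnc at 15.3 ± 0.373 and Spp1 at 8.43 ± 0.172 per kilobase. Cilp2 was a low transcript, at 78.3 ± 2.1 per kilobase in male floxed and 188 ± 6.56 in male cardioGRKO hearts. Ctgf was of middle rank, at 564 ± 5.13, 1061 ± 30.6, 1169 ± 18.6 and 872 ± 17.6 per kilobase in floxed then cardioGRKO males and floxed then cardioGRKO females.

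**Figure D4:**
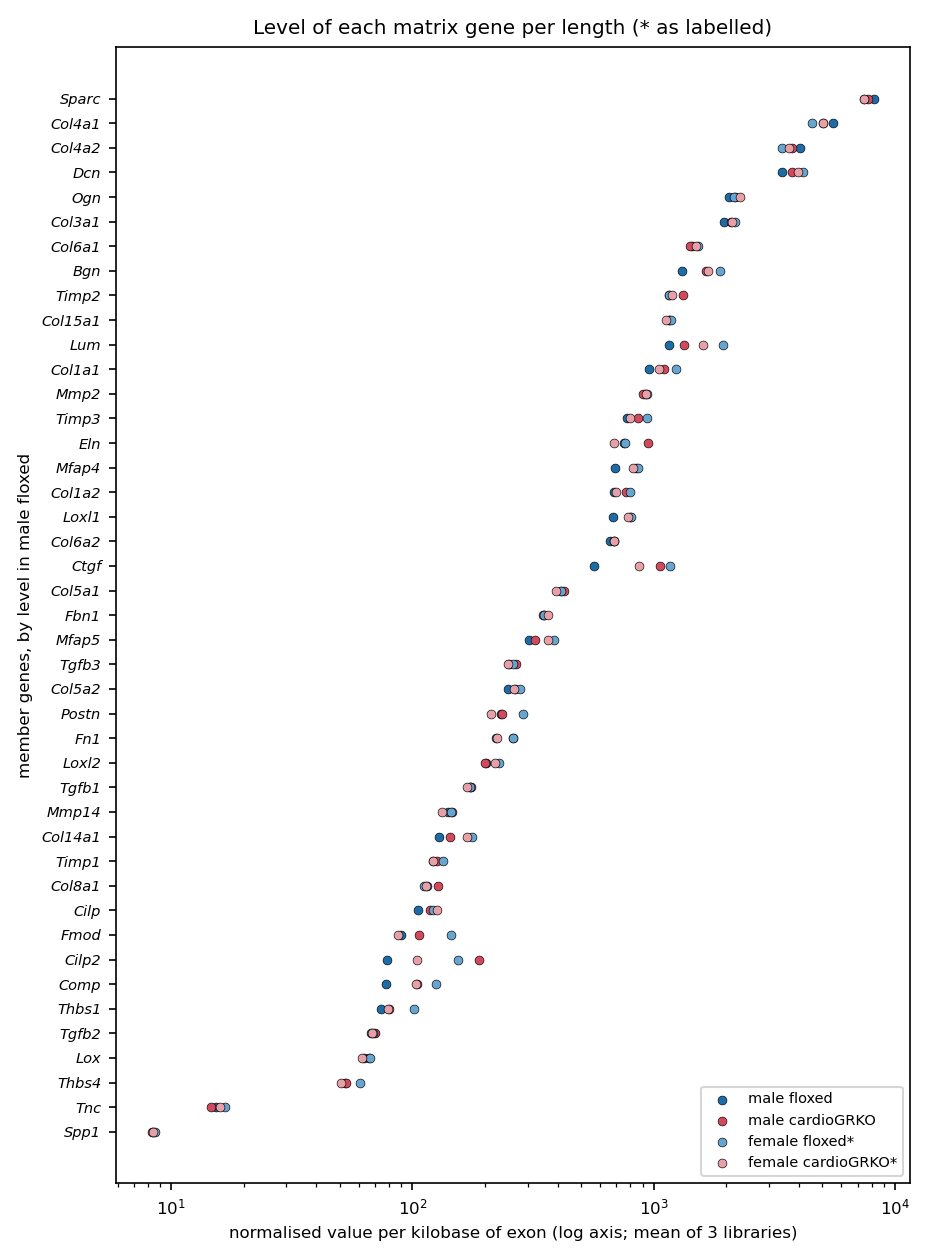
Level of each of the 43 genes per kilobase of exon (2 to the power of the deposited log2 value, divided by exon length, log axis), 1 point per group mean of 3 libraries. In male floxed hearts the genes span from Spp1 at 8.43 to Sparc at 8198, and the 4 groups lie close together for most genes, with Ctgf and Cilp2 spread most widely.

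Levels in the sexes were also set side by side within each genotype. These comparisons use the same libraries as the genotype comparisons, so they restate the same 4 group means. Between floxed groups, 27 of 43 genes were higher and 3 lower in the libraries labelled female, beside 21.5% and 22.7% of all tested genes (44.2% together). Between cardioGRKO groups, 9 were higher and 16 lower, beside 11.9% and 12.4% (24.2% together). All 3 female libraries lay above all 3 male libraries for 28 genes and below for 3 between floxed groups, beside 24.7% and 26.1% of tested genes (50.8% together), and for 11 and 19 between cardioGRKO groups, beside 20.3% and 19.8% (40.1% together). Ctgf was 2.07-fold higher in female than in male floxed libraries (log2 difference 1.05, limma adjusted p = 3.9e-15) and lower in female than in male cardioGRKO libraries (-0.28, adjusted p = 2.3e-07). Cilp2 went from 0.99 between floxed groups to -0.86 between cardioGRKO groups, fibromodulin (Fmod) from 0.70 to -0.31, and biglycan (Bgn) from 0.52 to 0.03. Elastin (Eln) had a floxed difference of 0.02 (adjusted p = 0.42) and a cardioGRKO difference of -0.46 (adjusted p = 1.6e-10). Lumican (Lum) and Col14a1 were higher in the libraries labelled female in both genotypes, at 0.75 and 0.26 for lumican and at 0.45 and 0.23 for Col14a1.

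Other genes of the pathway, in 8 lists of 160 genes of which 156 were tested, had more rises than falls in males and more falls than rises in the libraries labelled female. In males 61 rose and 17 fell (39.1% and 10.9%, beside 12.8% and 14.6% of all tested genes). In females 30 rose and 56 fell (19.2% and 35.9%, beside 15.2% and 14.0%), and 73 and 26 passed the interaction test in each direction (46.8% and 16.7%, beside 14.3% and 17.0%). Among 22 further proteoglycans, elastic fibre and linking proteins, 14 rose and none fell in males, and 2 rose and 13 fell in females. Podocan (Podn), a collagen-binding proteoglycan, rose by 0.70 in males (limma adjusted p = 1.6e-11) and fell by 0.58 in females (adjusted p = 3.2e-10), with an interaction of 1.29. Emilin2, an elastic fibre glycoprotein, rose by 0.68 in males (adjusted p = 8.3e-13), and fibulin 1 (Fbln1), a linking protein, by 0.28 (adjusted p = 9.7e-08).

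Collagens, processing enzymes and matricellular proteins outside the 43 genes were counted against the same shares of all tested genes. Of 19 tested collagens 6 rose and none fell in males, and 1 rose and 12 fell in females. The mean deviation of these collagens was 0.091 and 0.124 in female floxed replicates 1 and 2, which held the epithelial transcripts. It was 0.021 in the third and -0.039 to -0.025 in female cardioGRKO libraries, so part of the falls rests on that pair. Col12a1, which binds fibrils, was at 7.29, 7.65 and 6.74 in female floxed and 6.69, 6.77 and 6.70 in female cardioGRKO libraries (-0.50, limma adjusted p = 0.01), so its high values were those of the libraries with epithelial transcripts. Of 20 enzymes that process and crosslink collagen, 11 rose and 2 fell in males, and 6 rose and 9 fell in females. The procollagen C-proteinase enhancers Pcolce2 and Pcolce rose by 0.36 and 0.25 in males (adjusted p = 2.8e-07 and 2.5e-06). Of 14 matricellular proteins 7 rose and 2 fell in males, and 2 rose and 7 fell in females, among them Smoc1, a calcium-binding basement membrane protein, at 0.33 and -0.34 (adjusted p = 8.9e-07 and 1e-06).

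In the laminin and protease lists rises and falls were nearly balanced in both sexes. Of 15 laminins and related proteins 2 rose and 3 fell in males (13.3% and 20%), and 2 rose and 2 fell in females (13.3% and 13.3%). These shares were near those of all tested genes, 12.8% and 14.6% in males and 15.2% and 14.0% in females. The counts that follow stand beside the same shares. The laminin chain Lama5 fell by 0.26 in males (limma adjusted p = 4.1e-08), and nidogen 1 (Nid1), which links laminin to type IV collagen, rose by 0.25 in females (adjusted p = 3.4e-08). Of 24 tested proteases and inhibitors 6 rose and 4 fell in males (25% and 16.7%), and 6 rose and 5 fell in females (25% and 20.8%). Of 21 TGF-beta receptors, SMADs and modulators, 8 rose and 2 fell in males (38.1% and 9.52%), and 4 rose and 4 fell in females (19% each). The inhibitory Smad6 rose by 0.33 in males (adjusted p = 1.2e-07), and the secreted glycoprotein Fstl1 was at 0.20 and -0.19 in males and females (adjusted p = 6.9e-07 and 1.9e-06). Of 21 tested integrins and other matrix receptors 7 rose and 4 fell in each sex (33.3% and 19%), with the collagen receptor Ddr1 at 0.49 in males (adjusted p = 5.1e-08).

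Markers of other cell types moved beside these differences, and their counts stand beside 12.8% of all tested genes that rose and 14.6% that fell in males, and 15.2% and 14.0% in females. All 8 atrial muscle genes rose in males and 7 of 8 fell in females. Their summed level was 31900 to 32500 in male floxed, 139000 in all 3 male cardioGRKO, 108000 to 112000 in female floxed and 53200 to 54400 in female cardioGRKO libraries. This is the order of Cilp2 by group, from male floxed through female cardioGRKO and female floxed to male cardioGRKO. The mean deviation of the 43 matrix genes was -0.114 to -0.111 in male floxed, 0.027 to 0.039 in male cardioGRKO, 0.088 to 0.124 in female floxed and -0.026 to -0.018 in female cardioGRKO libraries, so it was highest in female floxed. The part of atrial tissue in the matrix result was not tested.

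Fibroblast markers had other counts than the matrix genes in the libraries labelled female. Of 12 such genes 5 rose and 3 fell in males, and 6 rose and 2 fell in females. Their summed level was 85400 to 87400 in male floxed, 92100 to 94000 in male cardioGRKO, 93500 to 94600 in female floxed and 96100 to 97500 in female cardioGRKO libraries. Pdgfra, a receptor that marks cardiac fibroblasts, differed by 0.02 in males (limma adjusted p = 0.68) and rose by 0.11 in females (adjusted p = 0.0066). Scara5, a receptor of a fibroblast subset, fell by 0.28 in males (adjusted p = 9.9e-07) and rose by 0.33 in females (adjusted p = 2.7e-07). These were the extremes of the list, whose other ends were 0.23 in males and -0.09 in females. The median of the 12 was 0.046 in males and 0.048 in females. The part of fibroblast number in the matrix result was not tested.

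Surface and epithelial cells also varied. Of 7 tested epicardial and mesothelial genes, 4 rose and none fell in males, and 5 fell and none rose in females, with sums of 1310 to 1360, 1540 to 1570, 1490 to 1640 and 1220 to 1250 in floxed then cardioGRKO males and floxed then cardioGRKO females. The mean deviation of these genes was 0.174 and 0.251 in female floxed replicates 1 and 2, which held the epithelial transcripts. It was 0.055 in the third and -0.193 to -0.167 in female cardioGRKO libraries. All 12 corneal and stratified epithelial genes fell in females and 0 passed in males (limma; 0 also at an unadjusted p under 0.05), with sums of 6050 to 6310, 6000 to 6140, 6370 to 41900 and 5850 to 6200. Of 10 tested valve, tendon and cartilage genes 1 rose in males and 5 fell in females, with sums of 1020 to 1060, 1030 to 1050, 1080 to 1110 and 1030 to 1070. The part of epicardial and valve cells in the matrix result was not tested.

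The remaining lists are given by counts, to be read against the 27.4% of all tested genes called in males and 29.3% in females. Of 10 cardiomyocyte genes none rose and 8 fell in males (80% called), and 3 rose and 1 fell in females (40% called, nearer to that share). Of 9 smooth muscle and pericyte genes 1 rose and 6 fell in males, and 3 rose and 4 fell in females. Of 9 macrophage genes 0 passed in males by limma (3 at an unadjusted p under 0.05), and 4 rose and 1 fell in females. All 6 B cell genes rose in males and 4 in females, and of 6 tested adipocyte genes 2 rose and 2 fell in males and 5 rose in females.

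**Figure D5:**
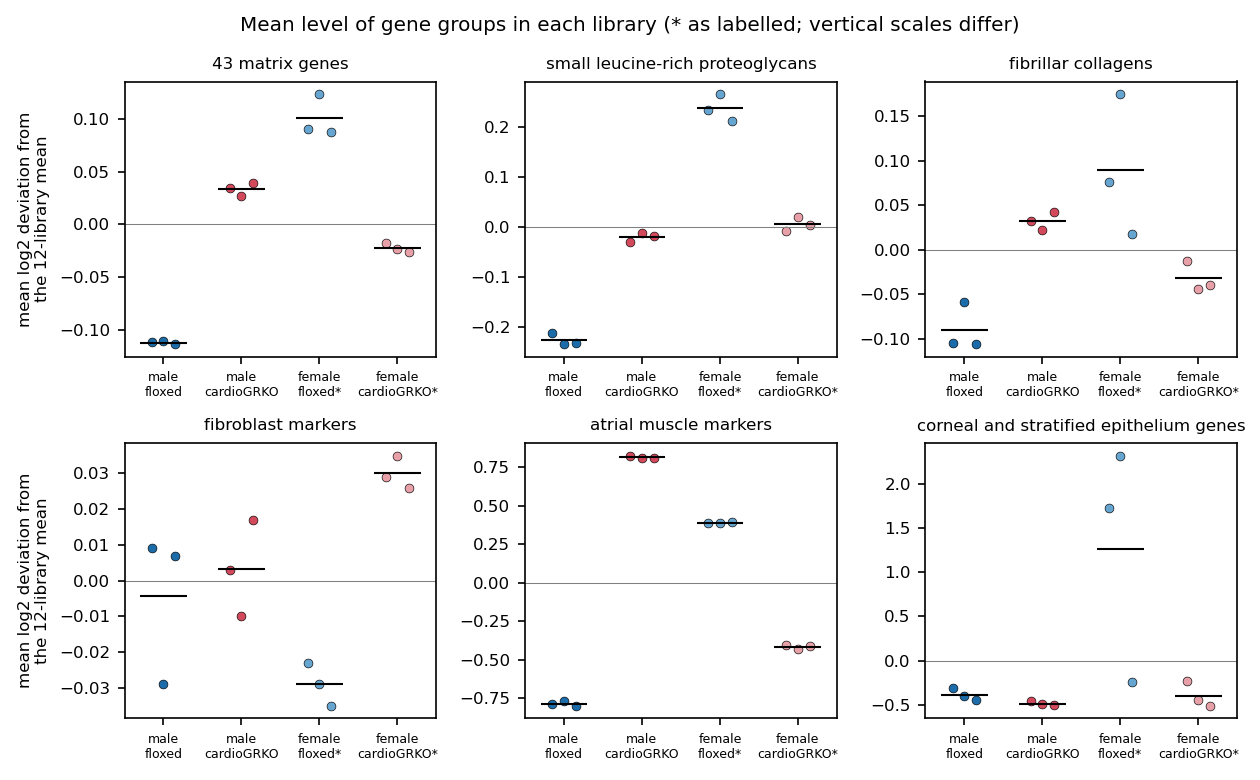
Mean deviation from each gene's own mean over the 12 libraries, in log2 units, for the 43 matrix genes, the small leucine-rich proteoglycans, the fibrillar collagens and the fibroblast, atrial muscle and epithelial markers, 1 point per library, with a bar at the group mean and vertical axes that differ between panels. Matrix and proteoglycan panels are lowest in male floxed and highest in female floxed libraries, the atrial panel is highest in male cardioGRKO, and the epithelial panel is high in 2 female floxed libraries.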

How the data were processed

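RNA of 12 mouse heart libraries (Trizol and RNeasy extraction, Illumina TruSeq kit, NextSeq500, per the labels' protocols) was analysed as 1 deposited table of 24918 genes. The authors used Trim Galore, TopHat2, HTSeq, DESeq2 and mm9, per the submitters' processing notes, with no versions given. The deposited values are log2 levels per gene, normalized between libraries by the authors, as the table's name and the range of its values show. Whether they were shrunken by the authors is not given in the sources used here. Shrinkage would make folds of low genes smaller and the spread between their libraries narrower. The lowest value was -2.2, and Col9a1, which lay below the filter, was at 1.25 to 1.27 in all 12 libraries. The narrow SDs given here may thus not be plain spread between replicates.

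Genes at a log2 value of at least 3.32 (10 on the linear scale) in 3 or more libraries were kept (14721). One limma 3.58.1 model (R 4.3.3) held 4 group means and 8 residual degrees of freedom, with a mean-variance trend, and p-values were adjusted by Benjamini-Hochberg over all tested genes in each of 5 contrasts and called under 0.05. The model was tested on simulated data with known changes and independent normal noise. At each of 0.1, 0.25, 0.5 and 1 log2 units, 50 of 14721 genes were changed. That is a far smaller share than the 27.4% and 31.3% called here in males and in the interaction. The adjusted threshold depends on that share, so the recoveries below hold for the simulation only. Of changes of 0.1 log2 units 42% were recovered in males and 26% in the interaction. Of changes of 0.25 units 96% and 86% were recovered. Differences near 0.1 were thus often missed in the simulation and may be missed in the data. The simulation does not test whether the noise of these libraries has that form. With 3 against 3 libraries an exact permutation test cannot go below 0.1, so none is given.

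The 43 members and all lists were chosen with earlier results of these data known. Values in every library are given for the 8 called members with the largest difference in males, the 8 in females and the 6 in the interaction, plus Col1a1, Col3a1, Postn, Ctgf and the TGF-beta ligands. A few others were added after their values were seen: Col4a1, Col4a2, Sparc, Loxl1 and Timp3. From each further list up to 3 called genes per contrast could be named. The chains Col4a3, Col4a4, Col4a5 and Col4a6 were added to stand beside Col4a1 and Col4a2, and Col9a1 as an example of a low gene. In the table, 27 symbols that had become dates were restored through their Entrez identifiers. Alternatives were a stricter filter, no filter, no trend, robust moderation, library weights, quantile normalization, median centring, fits within 1 sex, replicate blocks, leaving out each library, and leaving out the pair with epithelial transcripts.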

Additional observations from a re-analysis of the deposited data

Results flagged for a closer look

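The genotype difference itself differed between the sexes, by limma's interaction test (adjusted p under 0.05, male minus female difference on the log2 scale), for 30 of the 43 matrix genes, and each of these values rests on the female libraries as labelled. Among fibrillar collagens it was 0.42 for Col1a1, 0.36 for Col1a2, 0.14 for Col3a1 and 0.18 for Col5a2. Among the other collagens it was -0.30 for Col4a1, -0.20 for Col4a2, 0.22 for Col14a1 and 0.08 for Col15a1. Fibronectin and elastic fibre genes had 0.46 for Fn1, 0.49 for Eln, 0.36 for Mfap4 and 0.16 for Mfap5. Small leucine-rich proteoglycans had 0.49 for Bgn, 0.22 for Dcn, 0.49 for Lum and 1.01 for Fmod. Matricellular genes had the widest values, at 1.84 for Cilp2, 1.33 for Ctgf, 0.70 for Comp, 0.49 for Thbs1, 0.46 for Postn, 0.27 for Thbs4 and -0.09 for Sparc. Crosslinking enzymes had 0.17 for Lox and 0.27 for Loxl1. Proteases and inhibitors had 0.18 for Mmp14, 0.18 for Timp1, 0.16 for Timp2 and 0.38 for Timp3, and the ligand Tgfb3 had 0.17.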

How the results depend on the processing

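Over all alternatives, 108 of the 135 calls of a matrix gene in a contrast were never lost and 3 values turned direction, all under quantile normalization: Sparc to 0 in males (limma adjusted p = 0.92) and to 0.07 in the interaction (adjusted p = 0.0053), and Col4a2 between the cardioGRKO groups to 0.03 (adjusted p = 0.13), and the cause was not tested. Without the 2 libraries labelled female floxed with epithelial transcripts, 2734 of all tested genes were called in the female contrast, against 4309, with fewer libraries in the fit. Leaving out each library in turn gave 25 to 27 called matrix genes in males, 24 to 25 in females and 28 to 32 in the interaction, and over all genes 3391 to 3600, 3393 to 4077 and 4133 to 4907. Labels give the groups the same replicate numbers. Deviations from the group means, correlated over all tested genes, gave -0.11 to 0.15 between same-numbered libraries within a sex. By these deviations 5 of 12 libraries correlated best with their own number, each among the 3 libraries of the other group of its sex. With a replicate block shared by the 4 groups, 26, 24 and 30 matrix genes were called in males, females and the interaction, and with a replicate block within each sex 26, 23 and 29. Read depth is unknown, so no counting error can be given.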
